A study of Mus musculus with 4 samples.

Results

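The promoters and gene bodies of 86 protein-coding genes named for the proteins of the cytosolic ribosome were examined in the open chromatin of mouse hair follicle stem cells. A gene was taken when its symbol began with Rpl or Rps, followed by a digit or by p and a digit. The ribosomal S6 kinases, names with -ps and names ending in l1 were left out. The accessible regions counted for a gene are peaks whose summit lay inside it or within 1 kb of it. This gave 90 of 68192 wild-type peaks and 87 of 63545 knockout peaks outside the mitochondrial genome, which joined into 91 of 79122 regions when peaks overlapping by at least 1 bp were merged. The genes were 86 of 21887 protein-coding genes and lay on 19 chromosomes. By name, 46 encode proteins of the large subunit and 30 proteins of the small subunit. Another 9 are paralogs or retrogene copies, and 1, Rps19bp1, encodes a protein that binds a ribosomal protein and is no part of the ribosome.

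Ribosomal proteins are needed in every growing cell in nearly equal amounts, and their genes are among the most transcribed of the genome. Their promoters are short and rich in G and C, many lack a TATA box, and transcription often starts at a C within a run of pyrimidines. That start gives the messenger RNA a 5′ terminal oligopyrimidine (TOP) tract, through which mTOR signalling and LARP1 set its translation. Because the genes are active in all cell types, their promoters were taken as a baseline for comparing accessibility between samples. Whether their accessibility is in fact the same in both genotypes was not established.

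The study used ATAC-seq, in which a transposase inserts adapters into open DNA, on hair follicle stem cells of male mice, sorted from dorsal skin at P70 (days after birth), in the resting phase called the second telogen. The 2 control mice (WT, numbers 13 and 15) had the genotype NFIBfl/fl;NFIXfl/fl;R26-YFPfl/fl and no Cre, and the 2 knockout mice (dKO, numbers 14 and 16) had the same alleles together with Sox9-CreER, so that all mice carried floxed Nfib and Nfix and a floxed YFP reporter. The recombinase is expressed where the Sox9 promoter is active, and the labels used here give no inducer or dose. Cells were DAPI-negative, Sca-1-negative and positive for integrin alpha 6 and CD34, and dKO cells were also YFP-positive, so the gates differed by that marker. Both mice of a genotype share 1 deposited peak list, so differences below have no replicate check and no p-value. The pileup, the number of reads or fragments stacked at a peak's summit, had a median of 73 in WT and 38 in dKO, and the lowest local background was 5.29 and 2.73, so the lists differ in depth. All 10 stem cell markers examined, among them Cd34, Itga6, Lhx2 and Krt15, had a region in both lists. Of the markers of other cells, Cd3e, Lyz2, Cdh5, Mlana and Ly6a had a region in neither list and Ptprc in the dKO list alone, while Pecam1, Col1a1, Pdgfra and Dct had regions in both.

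RefSeq promoter windows (assembly GRCm38.p6, of the same major build as the peaks) reach from 250 bases before to 50 after a gene start and were found for 66 of the 86 genes. The windows of 7 genes are shown as examples. They are Rpl37, with the highest WT pileup, and Rpl15, with the highest dKO to WT ratio. Rpl27 and Rps25 have the lowest ratios, and Rps6 and Rps27 are among the genes that hold a pyrimidine run together with a GABPA or YY1 motif. Rpl39l had no peak. Sequences run 5′ to 3′ on the strand of the gene. Capitals mark the GABPA motif CCGGAAGT, the YY1 motif AANATGGC, the single NFI arm TTGGCA (its reverse complement reads TGCCAA) and a run of at least 5 C or T letters over the gene start.
Rpl37, chr15:5116363-5116662, plus strand: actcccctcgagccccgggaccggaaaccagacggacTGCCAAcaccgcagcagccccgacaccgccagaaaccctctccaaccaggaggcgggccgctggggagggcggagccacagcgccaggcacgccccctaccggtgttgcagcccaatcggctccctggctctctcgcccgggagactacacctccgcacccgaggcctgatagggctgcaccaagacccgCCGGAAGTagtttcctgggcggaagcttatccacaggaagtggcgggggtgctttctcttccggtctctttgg
Rpl15, chr14:18270937-18271236, minus strand: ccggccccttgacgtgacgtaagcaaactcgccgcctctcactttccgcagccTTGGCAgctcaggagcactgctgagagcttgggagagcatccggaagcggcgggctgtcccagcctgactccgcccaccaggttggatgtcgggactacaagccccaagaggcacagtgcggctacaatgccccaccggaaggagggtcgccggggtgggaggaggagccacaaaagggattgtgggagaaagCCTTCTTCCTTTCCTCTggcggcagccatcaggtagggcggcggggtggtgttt
Rpl27, chr11:101441995-101442294, plus strand: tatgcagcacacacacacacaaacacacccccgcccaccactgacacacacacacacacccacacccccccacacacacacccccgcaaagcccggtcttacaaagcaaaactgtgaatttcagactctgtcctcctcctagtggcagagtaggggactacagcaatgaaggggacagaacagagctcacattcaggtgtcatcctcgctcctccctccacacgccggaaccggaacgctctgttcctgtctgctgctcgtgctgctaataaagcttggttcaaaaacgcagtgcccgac
Rps25, chr9:44407464-44407763, plus strand: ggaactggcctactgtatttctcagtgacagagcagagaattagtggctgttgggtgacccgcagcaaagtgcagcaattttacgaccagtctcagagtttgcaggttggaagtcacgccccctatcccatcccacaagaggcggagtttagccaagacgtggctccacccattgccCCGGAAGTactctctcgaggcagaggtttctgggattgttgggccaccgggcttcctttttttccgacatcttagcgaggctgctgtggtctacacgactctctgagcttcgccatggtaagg
Rps6, chr4:86857318-86857617, minus strand: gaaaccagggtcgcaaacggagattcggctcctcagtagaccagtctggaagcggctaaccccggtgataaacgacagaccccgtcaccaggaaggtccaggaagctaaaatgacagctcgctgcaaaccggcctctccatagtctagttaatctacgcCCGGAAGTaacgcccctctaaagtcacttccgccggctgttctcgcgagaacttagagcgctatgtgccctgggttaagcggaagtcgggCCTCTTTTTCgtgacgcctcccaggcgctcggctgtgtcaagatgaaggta
Rps27, chr3:90213599-90213898, minus strand: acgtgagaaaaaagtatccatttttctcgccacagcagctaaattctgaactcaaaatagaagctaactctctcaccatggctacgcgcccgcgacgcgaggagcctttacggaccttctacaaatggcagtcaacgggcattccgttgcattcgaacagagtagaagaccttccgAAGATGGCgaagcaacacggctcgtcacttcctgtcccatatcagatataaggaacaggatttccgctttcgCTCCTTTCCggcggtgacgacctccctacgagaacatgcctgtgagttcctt
Rpl39l, chr16:10169978-10170277, plus strand: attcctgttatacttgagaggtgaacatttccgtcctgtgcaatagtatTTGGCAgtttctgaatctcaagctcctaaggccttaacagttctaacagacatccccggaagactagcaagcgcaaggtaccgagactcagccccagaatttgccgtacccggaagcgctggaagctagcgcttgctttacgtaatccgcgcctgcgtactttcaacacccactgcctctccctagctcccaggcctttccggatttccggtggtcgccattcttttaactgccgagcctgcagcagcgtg
The pyrimidine run over the start is 17 letters long in Rpl15, 10 in Rps6 and 9 in Rps27. Counting the start as 0, the GABPA motif begins at position −23 in Rpl37, −73 in Rps25 and −91 in Rps6, and the YY1 motif at −74 in Rps27. The single NFI arm begins at −213 in Rpl37, −197 in Rpl15 and −201 in Rpl39l. Rpl27 holds none of these.

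The genes for canonical subunit proteins had accessible regions in both genotypes. All 46 large subunit genes and all 30 small subunit genes had a region called in both lists where an overlap of 1 bp counts as shared, with a lower 95% Wilson limit of 95.2% for the 76 together. In all, 81 of 86 genes had one (94.2%, interval 87.1 to 97.5), against 66.4% of all coding genes. At Rpl7 the call rests on the overlap, since the dKO summit lies over 1 kb from the gene, beside Rdh10. Where summits within 200 bp count as shared, 91.9% of the 86 genes had one. The remaining 5 had no peak in either list and were all paralogs or retrogene copies. They are Rpl10l, a testis paralog on chromosome 12 (66283379 to 66284401), Rpl39l, a paralog known from testis on chromosome 16 (10170197 to 10174911), Rpl32l on chromosome 10, Rpl37rt on chromosome 5 and Rps27rt on chromosome 9. The other 4 such genes, Rpl3l, Rpl36al, Rps27l and Rps23rg1, and Rps19bp1 had a region in both lists. Mapping may split the reads of near-identical copies between loci, and the treatment of such reads was not given, so the values of copies are uncertain. Among ribosomal protein genes whose symbols do not follow the naming rule, Rpsa, Fau and Rack1 also had a region in both lists, as did all 28 genes of a list of translation factors and regulators, all 78 mitochondrial ribosomal protein genes, 48 of 51 proteasome genes and 53 of 56 initiation factor genes.

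Most of the 86 genes had a single region, and regions in 1 list alone were weak. Of the 91 regions 88 were called in both lists (96.7%, 90.8 to 98.9), against 68.2% of all regions in or within 1 kb of coding genes, and 80 of the 82 at gene ends were (97.6%), against 90.4% of 12896 other gene-end regions. The dKO list had 0 regions of its own, which allows a share of up to 4.05% (Wilson), against 11.5% of all regions in or near coding genes and 3.51% of other gene-end regions. The WT list had 3, or 3.30%, against 20.4% and 6.13%. The 3 lay at Rpl11, with a pileup of 76, at Rps15a, with 24, and at Rps4x, with 34, each beside a stronger region found in both lists. The 71 genes with 1 region stand against 10 with 2, namely Rpl4, Rpl11, Rpl18, Rpl19, Rpl36, Rps4x, Rps15a, Rps18, Rps19 and Rps23rg1. Where a gene had 2, the stronger by the sum of both scaled pileups is called its main region below. Just inside the 1 kb limit lay a dKO peak 822 bp from Rpl4 (pileup 92) and a WT peak 812 bp from Rpl11 (76), and just outside it a WT peak 1005 bp from Rps10 (41) and a WT peak 1067 bp (142) and a dKO peak 1094 bp (23) from Rpl32l.

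**Figure D1:**
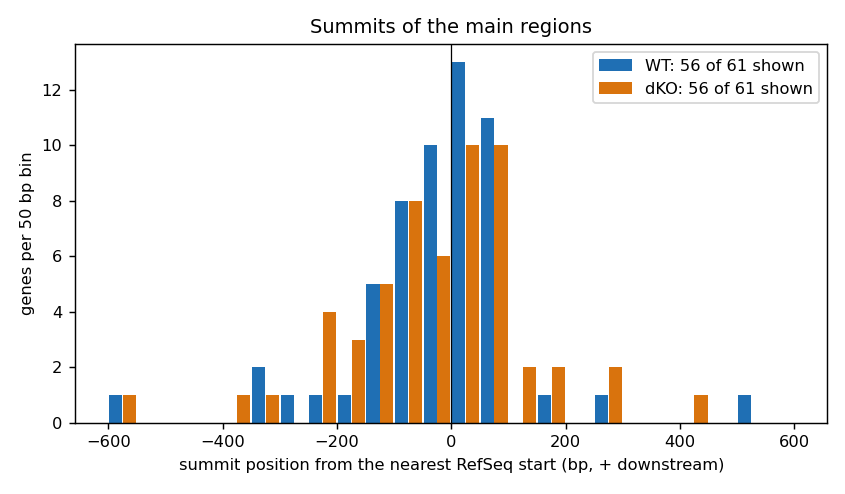
Distance of the main region's summit from the nearest RefSeq gene start, in bp, against the number of genes per 50 bp bin, with WT in blue and dKO in orange. Of the 61 genes with a listed start 56 lie within the range drawn, and in both lists the summits gather at the start, the WT median being 0 bp and the dKO median 6 bp.

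Most summits lay near the gene starts. Of 61 genes with a region and a listed start, 42 had the WT summit within 100 bp of the start, 50 within 250 bp and 54 within 500 bp. In dKO 34 summits lay within 100 bp. The other 7 were Rpl3l, Rpl4, Rpl10, Rpl18, Rpl38, Rpl41 and Rps23rg1. For Rpl3l, Rpl4, Rpl18 and Rpl41 the main region also lay within 1 kb of Msrb1, Snapc5, Sphk2 and Zc3h10, in that order, so position alone cannot assign them to the ribosomal gene. Altogether 19 of the 81 genes had another coding gene within 1 kb of a summit in the main region, among them Rps27 with Rab13 and Rpl15 with Nkiras1. WT and dKO summits lay within 100 bp of each other in 67 genes, or 82.7% against 77.2% of all shared gene-end regions, and at the same base in 21, with a median distance of 8 bp against 41 bp for all shared gene-end regions. The largest distance was 1010 bp at Rpl7, whose region also lies within 1 kb of Rdh10, so its values come from different summits, the dKO one being over 1 kb from Rpl7. Peaks were long in both lists, the median length being 1359 (WT) and 1231 bp (dKO) against 768 and 691 bp for all peaks and 1297 and 1166 bp for shared gene-end regions. The dKO to WT length ratio had a median of 0.91 over the 81 genes, near the 0.90 between the median lengths of the whole lists.

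The ribosomal protein promoters were among the strongest peaks of both lists. Main-region pileups ran from 113 to 912 with a median of 382 in WT, and from 43 to 532 with a median of 153 in dKO. Promoters at large were strong too. The WT and dKO medians were 257 and 116 over all shared gene-end regions, and 279 and 125 over shared main regions of all other coding genes. The median ribosomal gene stood above 91.5% of WT peaks and 89.0% of dKO peaks, and 51 genes in WT and 37 in dKO were in the top 10% of their list. These ranks are against all peaks of a list, not against gene ends alone. Divided by the median pileup of the list, which is how pileups are scaled below, the ribosomal median was 5.23 in WT and 4.03 in dKO, so that the typical gene was closer to the list's median peak in dKO. Over the 81 genes the log2 scaled pileups of the lists had a Pearson correlation of 0.956, and over all 11732 shared gene-end regions one of 0.937. Both are given as descriptions, since all points come from the same pair of lists.

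The strongest WT peaks were at large and small subunit genes alike. Rpl37 (chromosome 15, 5116613 to 5119140), a zinc-binding large subunit protein, had a pileup of 912 in WT and 433 in dKO, or 12.5 and 11.4 after scaling. Rpl15 (chromosome 14, 18267823 to 18270986), a large subunit protein, had 847 and 532, or 11.6 and 14. Rps29 (chromosome 12, 69157722 to 69159186), a small zinc-binding protein of the small subunit, had 788 and 404, or 10.8 and 10.6. Rpl15 was the strongest of the ribosomal protein genes in dKO, as Rpl37 was in WT. Rpl30, which in yeast binds its own transcript, had 713 and 346. At the low end, Rps10 (chromosome 17, 27630415 to 27635244), a small subunit protein, had 113 and 43, or 1.55 and 1.13. Rpl38 (chromosome 11, 114667818 to 114672333), known in mice for its role in translating Hox transcripts, had 144 and 62, and the X-linked Rps4x had 148 and 77. Rpl6 had 194 and 66 and Rps28 198 and 66. Even the weakest main regions lay above the median peak of each list.

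**Figure D2:**
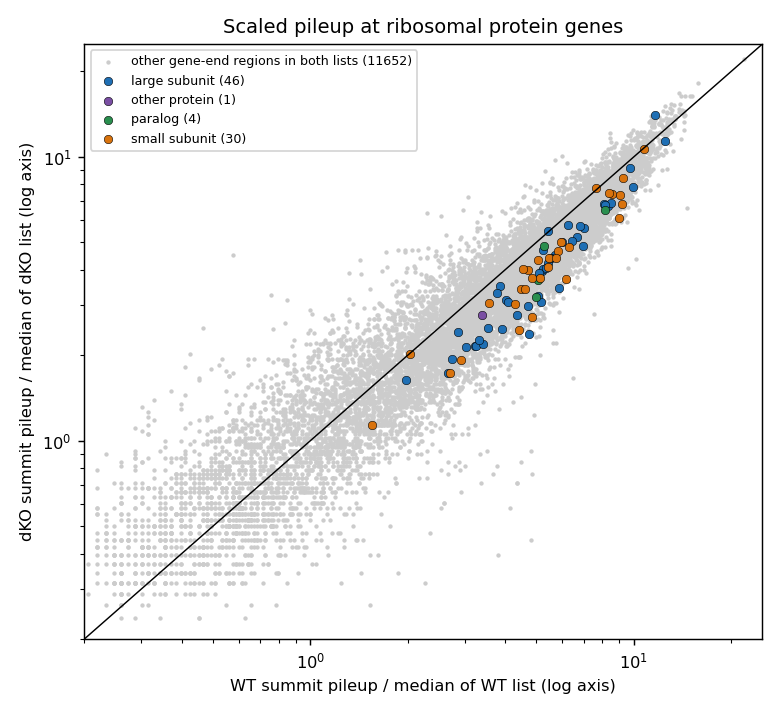
Summit pileup divided by the list's median pileup, WT on the horizontal and dKO on the vertical axis, both logarithmic, with 1 point per region. Grey points are 11652 other gene-end regions found in both lists, coloured points the main regions of 81 ribosomal protein genes, and the line marks equal values. Nearly all coloured points lie below the line, with Rpl15 above it at 11.6 and 14.

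Scaled pileup at the ribosomal protein genes was lower in dKO than in WT for almost the whole set, by an amount that was moderate at the median and varied between genes. The log2 ratio of dKO to WT was below 0 in 78 of 81 genes, against 66.6% of all shared gene-end regions. Its median was −0.36, with quartiles of −0.51 and −0.25, which is a ratio of 0.778. For all shared gene-end regions the median was −0.15, so the ribosomal genes lay 0.21 below them on the log2 scale. The ratio was 1.5-fold or more lower in 16 of 81 genes (19.8%), against 10.3% of gene-end regions, and 1.5-fold or more higher in 0, against 6.44%. At the 2-fold limit 1 gene, Rpl27, was lower, against 1.73% of gene-end regions. Rpl27 lay at the limit itself, with a log2 ratio of −1.0009. It did not pass with the lowest local background (−0.99) or the median of shared gene-end regions (−0.80) as the scale. The exact 95% counting interval of a gene's ratio, which covers counting error only, was wholly below 0 in 58 genes, against 30.0% of gene-end regions, and wholly above 0 in 1, against 9.69%. These shares are not at like precision, since intervals narrow with pileup and the ribosomal genes had the higher median pileup. Set against the gene-end median of −0.15, 25 of the 81 intervals lay wholly below it and 1 wholly above it.

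The direction depended on the measure. With the lowest local background of each list as the scale, 77 of 81 genes were lower in dKO, against 65.4% of shared gene-end regions. With the median of shared gene-end regions as the scale 66 of 81 were, against 43.6%, with a median of −0.16 for the ribosomal genes and 0.05 for all shared gene-end regions. The fold enrichment deposited by the authors, which divides the pileup by the background around the peak, was instead higher in dKO in 67 of 81 genes and lower in 14 (17.3%), against 27.8% of shared gene-end regions. Its median log2 ratio was 0.15 for the ribosomal genes and 0.13 for all shared gene-end regions, a difference of 0.012. No gene passed 1.5-fold by it, with 0 of 81 lower, against 2.08% of gene-end regions, and 0 higher, against 3.87%. The local background itself was recovered from pileup and fold and scaled to the lowest of its list. Its median log2 ratio was −0.58 at the ribosomal genes and −0.33 over shared gene-end regions, so by the median it was lower in dKO in both. At the ribosomal genes the median local background was 5.93 times the list's lowest value in WT and 3.78 times in dKO. Over these genes it ran from 1.82 to 16.1 times that value in WT. Whether the local background holds part of the peak's own signal, which the fold would then divide out, was not tested. The part of depth and background in the lower scaled pileup was not tested either.

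**Figure D3:**
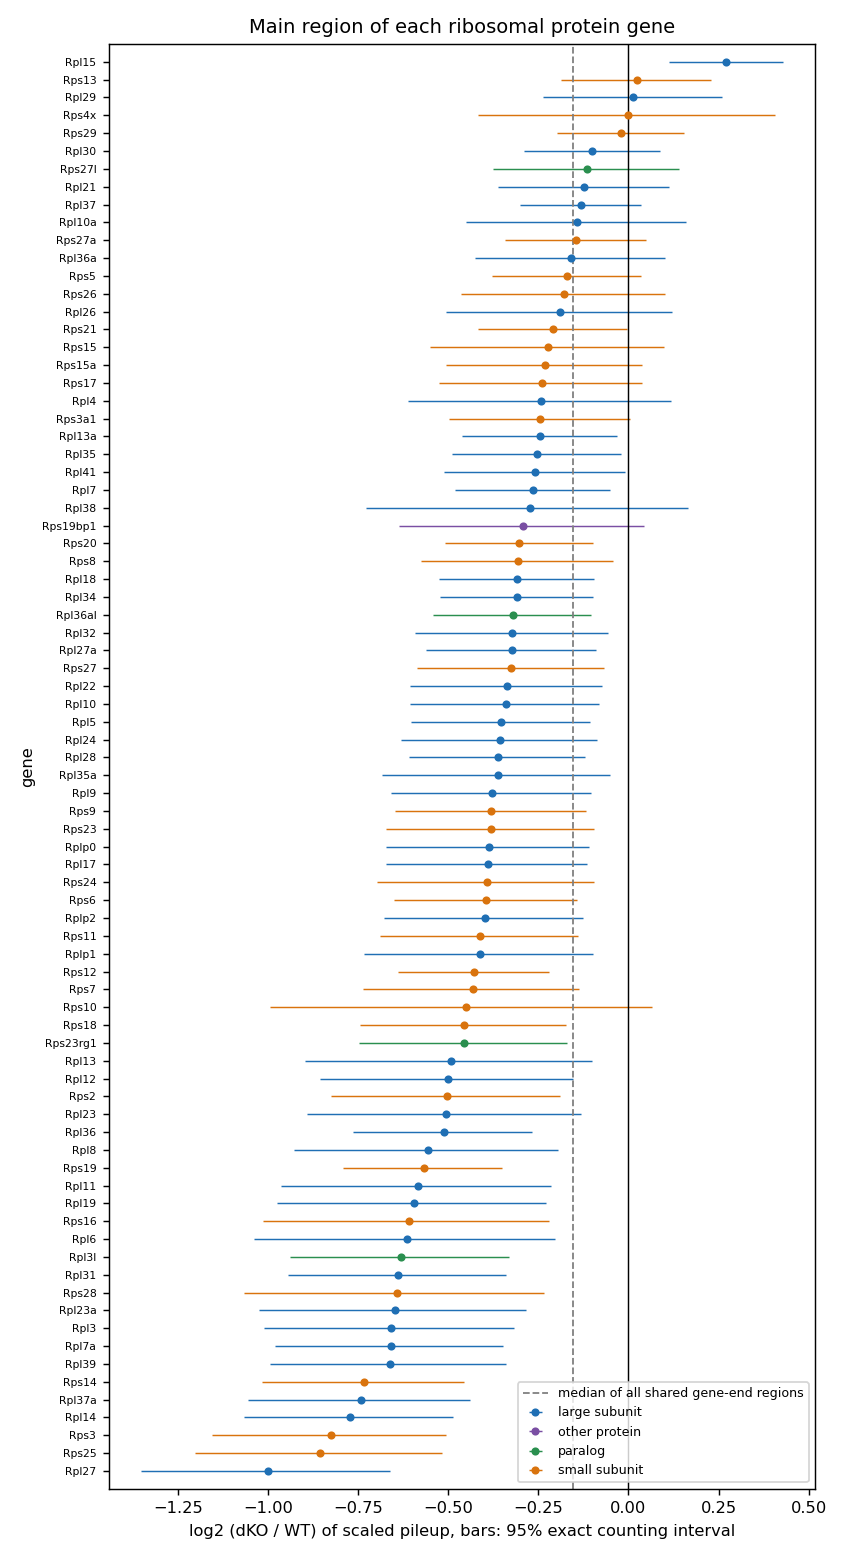
Log2 ratio of dKO to WT scaled pileup at the main region of 80 of the 81 genes, in order of the ratio, with exact 95% counting intervals as bars. The solid line marks 0 and the dashed line the median of all shared gene-end regions, −0.15, and the genes run from Rpl27 at −1.0 to Rpl15 at 0.27.

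Both subunits had the same typical ratio. The median was −0.36 in the 46 large subunit genes and −0.38 in the 30 small subunit genes, with 44 and 29 genes below 0. The SD over genes was 0.23 and 0.22. The 4 paralogs with a region had a median of −0.39, from genes among which Rpl3l, a muscle paralog of Rpl3, had −0.63 and Rps27l, a target of p53, −0.12. The main region of Rpl3l is the one beside Msrb1. Rpl36al, whose region is also near Mgat2, had −0.32 and Rps23rg1 −0.46. Rps19bp1 had −0.29, with a counting interval of −0.64 to 0.04. Without any other coding gene near the summit, 62 genes had a median of −0.36, and the 19 with one had −0.36.

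The lowest ratios were at Rpl27, Rps25, Rps3, Rpl14 and Rpl37a. Rpl27 (chromosome 11, 101442245 to 101445596), of the large subunit, had a pileup of 346 in WT and 90 in dKO, a log2 ratio of −1.0 (counting interval −1.35 to −0.66). Rps25 (chromosome 9, 44407714 to 44410406), which many viral internal ribosome entry sites require, had 323 and 93, a log2 ratio of −0.85 (−1.20 to −0.52). Rps3 (chromosome 7, 99477896 to 99483709), at the entry of the messenger RNA channel, had 354 and 104, a log2 ratio of −0.83 (−1.15 to −0.51). In these genes the scaled values were 2.37 to 2.74 in dKO and 4.42 to 4.85 in WT, the latter a little under the family's median of 5.23. The region of Rps25 also lies within 1 kb of Trappc4, and its summits are 201 bp apart. Rpl14 had 430 and 131 (−0.77) and Rpl37a 376 and 117 (−0.74). Their deposited fold was also lower in dKO, at 17.2 against 15.6 for Rpl27, 12.5 against 11.4 for Rps25, and 14.5 against 12.4 for Rps3. Lower values were recorded at the second regions of 2 genes. At the retrogene copy Rps23rg1 that region, away from the gene ends, had 265 and 55 and a log2 ratio of −1.33. The other is the second region of Rpl4, a large subunit protein that lines the exit tunnel. Both were chosen after their values were seen. The Rpl4 region has its summit 13 bp from the Rpl4 start, with pileups of 201 and 45 and a log2 ratio of −1.22 (−1.72 to −0.74). The main region of Rpl4, beside Snapc5, had 209 and 92 and −0.24 (−0.61 to 0.12).

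The highest ratios were at Rpl15, Rps13, Rpl29, Rps4x and Rps29. Rpl15 had a log2 ratio of 0.27 (0.11 to 0.43) and was the 1 gene with an interval wholly above 0. Rps13 (chromosome 7, 116331507 to 116334190), of the small subunit, had 558 and 295, a log2 ratio of 0.02 (−0.19 to 0.23). Rpl29 (chromosome 9, 106428889 to 106431568), also known to bind heparin, had 396 and 208, a log2 ratio of 0.01 (−0.24 to 0.26). In scaled pileup the lists were level at these genes within counting error. Rps29 had −0.02 (−0.20 to 0.15), and for Rps4x, with scaled values of 2.03 in both lists, the interval reached from −0.42 to 0.41. The main region of Rpl15 also lies within 1 kb of Nkiras1.

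Of 4 further genes with well-known roles, 2 had ratios near the family's median and 2 lay below its lower quartile of −0.51. Rps6 (chromosome 4, 86854099 to 86857367), the substrate of the S6 kinases, had pileups of 462 and 183 and a log2 ratio of −0.39 (−0.65 to −0.14). Rps19 (chromosome 7, 24884592 to 24889811), mutated in human Diamond-Blackfan anaemia, had 658 and 231 and −0.57 (−0.79 to −0.35). Rplp0 (chromosome 5, 115559467 to 115563729), of the stalk that recruits elongation factors, had 372 and 148 and −0.39 (−0.67 to −0.11). Rpl3 (chromosome 15, 80077781 to 80083406), beside the peptidyl transferase centre, had 285 and 94 and −0.66 (−1.01 to −0.32). Rps6 and Rplp0 were near the median, while Rps19 and Rpl3 lay below the lower quartile. All 4 intervals lay below 0, and these genes were chosen after the values were seen. Of the ribosomal proteins under other names, Fau had a log2 ratio of −0.87 (−1.34 to −0.42), Rpsa −0.56 and Rack1 −0.23 (−0.44 to −0.01).

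**Figure D4:**
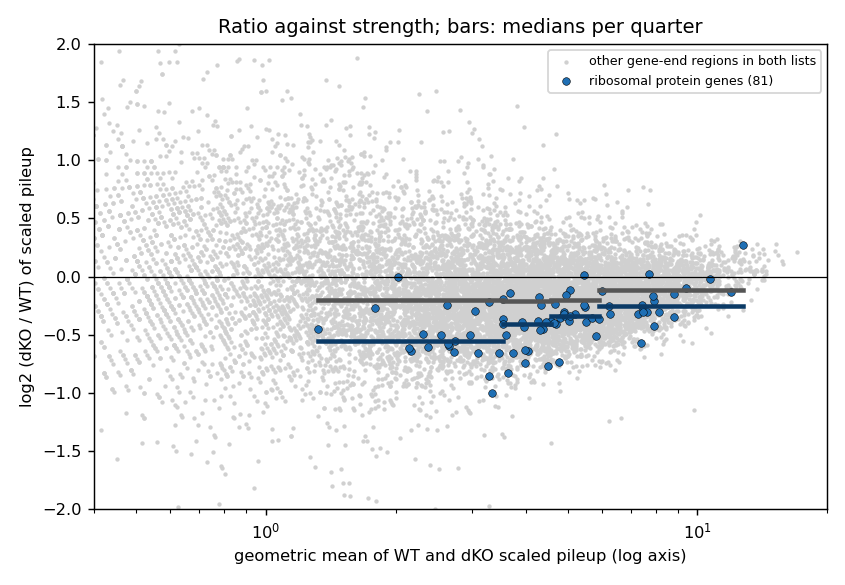
Log2 ratio of dKO to WT scaled pileup against the geometric mean of both scaled pileups (logarithmic axis) for the main regions of 81 ribosomal protein genes in blue and other shared gene-end regions in grey. Horizontal bars are medians within 4 strength classes of the ribosomal genes, which go from −0.56 to −0.25 for the ribosomal genes and lie at −0.20, −0.21, −0.20 and −0.11 for the others.

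The ratio came closer to 0 as the promoters got stronger. In 4 classes of 21 genes, by the geometric mean of both scaled pileups and with a gene on a class limit counted on both sides, the median log2 ratio was −0.56 in the weakest, then −0.41 and −0.34, and −0.25 in the strongest. In gene-end regions of the same strength it was −0.20, −0.21, −0.20 and −0.11, so the ribosomal genes were the lower in all 4 classes and most so in the weakest. For the deposited fold the medians of the ribosomal genes were 0.041, 0.075, 0.17 and 0.24, and those of the other regions 0.074, 0.12, 0.16 and 0.22. Against 6082 gene-end regions of like mean pileup, whose median was −0.20, the ribosomal genes lay 0.17 lower.

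In scaled pileup the ratios of the ribosomal genes were closer together than those of gene ends at large. Their SD was 0.22 over 81 genes, where counting error alone gives 0.15, and the range was −1.0 to 0.27. The SD was 0.45 over all shared gene-end regions, with 0.21 from counting error, and 0.30 over gene-end regions of like mean pileup, with 0.14 from counting error. Within the strength classes it was 0.23, 0.19, 0.15 and 0.18 for the ribosomal genes and 0.47, 0.32, 0.26 and 0.23 for the others. For shared regions away from gene ends it was 0.83, and for the list of translation factors and regulators described below 0.23. By the deposited fold the SD was 0.17 for the ribosomal genes and 0.18 for gene-end regions of like mean pileup, so the spread by that measure was nearly the same. These SDs describe regions of 1 pair of lists and hold no spread between mice.

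**Figure D5:**
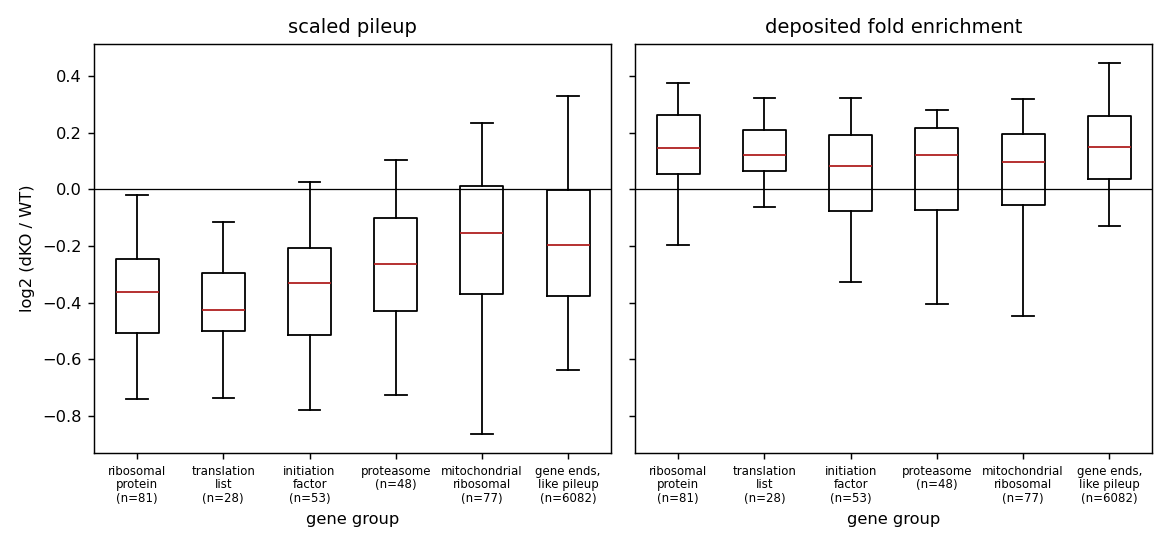
Log2 ratio of dKO to WT for scaled pileup (left) and for the deposited fold enrichment (right) in the main regions of 5 gene groups and in gene-end regions of like mean pileup. Boxes span the quartiles with the median in red, whiskers the 5th to 95th percentiles. For scaled pileup the medians run from −0.43 to −0.15 and differ between groups, for the deposited fold they lie between 0.083 and 0.15.

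In scaled pileup the translation list and the initiation factors had ratios like those of the ribosomal proteins. The proteasome and mitochondrial ribosomal protein genes had ratios nearer to 0. Low ratios also occurred outside these groups, the stem cell markers running from −0.70 at Krt15 to 0.21 at Tcf7l1. The list of 28 translation factors and regulators had a median log2 ratio of −0.43 in scaled pileup. In it 27 genes (96.4%) were below 0, against 66.6% of shared gene-end regions, and 5 (17.9%) were lower by 1.5-fold or more, against 10.3%. Its Eif genes are also counted among the initiation factors given below, so these groups overlap. Eef1a1, the elongation factor that delivers aminoacyl-tRNA, had 608 in WT and 193 in dKO (−0.71), and Eef2, which drives translocation, 563 and 176 (−0.74). Eif4b, a cofactor of the Eif4a helicase, had the lowest value of that list, 269 and 69 (−1.02, −1.42 to −0.63). Eif4ebp1, an inhibitor of cap-dependent initiation controlled by mTOR, was above 0 at 0.075 (−0.24 to 0.38). The ribosome assembly factors Npm1 and Fbl had −0.16 and −0.48. All 53 initiation factor genes with a shared main region had a median of −0.33, the 48 proteasome genes −0.26 and 77 main regions of mitochondrial ribosomal protein genes −0.15, against −0.15 for all gene ends. With the deposited fold the medians of these 4 groups were 0.12, 0.083, 0.12 and 0.096, so the order among families was not kept. The families differ in strength, with median WT pileups of 382 for the ribosomal proteins, 420 for the translation list, 328 for initiation factors, 338 for the proteasome and 275 for mitochondrial ribosomal proteins. Its part in the order was not tested.

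The promoter windows were searched for elements known from promoters of this kind, with no test of the shares. Since 66 of 86 genes (76.7%) had a window, which is under the 80% needed, these shares describe the windows at hand and are void as a check of the family. Motifs were searched on both strands, apart from the pyrimidine run, and compared with 17492 coding genes with 1 window each, and with 8243 of them that had a shared main region within 500 bp of the start, ribosomal genes left out. A run of at least 5 C or T letters over the start was found in 22 of 66 windows (33.3%), against 8.58% of all and 8.75% of open promoters, and such a run with C at the start in 16 (24.2%), against 4.85% and 4.89%. Only runs over the listed RefSeq start count, so a run lying some bases off that start is missed. The GABPA motif was in 10 windows (15.2%), against 5.40% and 9.73%, and the YY1 motif also in 10, against 6.75% and 9.32%. The SP motif GGGCGG was in 38 (57.6%), against 47.1% and 70.5%, and the NRF1 motif (GCGC on either side of 2 free bases) in 5 (7.58%), against 8.90% and 15.6%. CCAAT was in 21 (31.8%), against 39.0% and 40.9%, and TATAAA in 6 (9.09%), against 13.1% and 5.97%.

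Motifs of NFI, the factor family of NFIB and NFIX, were found in few of these windows, and no difference from other promoters was tested. The full NFI palindrome (TTGGC and GCCAA with 5 free bases between) was in 0 of 66 windows and in 7 of all 17492, so rare that 66 windows tell nothing about it. The single arm TTGGCA was in 4 (6.06%), against 13.2% of all and 10.4% of open promoters, namely in Rpl15, Rpl37, Rpl39l and Rps15a. The 3 of these with a region had a median log2 ratio of −0.13, and the 58 genes without the arm −0.38. With 3 genes this is given as values only, and no match says only that these letters are not in the window. For the pyrimidine run the medians were −0.37 in 20 genes with it and −0.38 in 41 without, and for the GABPA motif −0.33 in 10 and −0.38 in 51.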

How the data were processed

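Members and gene lists were chosen with earlier results of these data known. Per the submitters' processing notes, Bowtie2 2.2.9, Picard and MACS2 were used, in roles not given, with builds mm10 and GRCm38. The sources used here do not state how mice were combined, reads shifted or duplicates treated. The signal column deposited by the authors is the summit pileup, not scaled for depth. The deposited fold is a ratio, with 1 added to both the pileup and the local background, so the background could be recovered. The deposited −log10 q column, located by position because its header is damaged, starts at 1.3 for WT and dKO alike. Mitochondrial peaks, 5 in WT and 3 in dKO, were left out.

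Pileups were divided by the list's median. A region's value is its highest pileup in each list. Genes and promoter sequences are from RefSeq, GRCm38.p6, and gene-end regions have a summit within 1 kb of either end of a coding gene. No p-value was computed. Intervals (95%, Wilson for shares, Clopper-Pearson for ratios) cover counting error only and treat pileup as independent counts. Python 3.11.15, pandas 2.3.3 and scipy 1.17.1 were used. Overlaps were checked with bedtools 2.31.1. The ratio step was run on simulated counts built with the same scale, which checks its arithmetic and not the choice of scale. Named genes are those without a peak, the 5 highest and 5 lowest by WT pileup and by ratio, those with most regions, single-list regions and paralogs. Some of the genes so chosen are not reported here.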

Additional observations from a re-analysis of the deposited data

How the results depend on the processing

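No paired analysis was possible because the mice of the genotypes share no number and each genotype has 1 list. Leaving out a mouse was likewise not possible. The cause of the changes below was not tested. With summits within 200 bp as the overlap 88.3% of regions were shared. With flanks of 200 bp 86.0% of genes had a shared region, and without peaks near another coding gene 73.3%, both settings holding fewer peaks by construction. The median log2 ratio was −0.16 with the median of shared gene-end regions as the scale and reversed to 0.15 with the deposited fold. Its difference from gene ends was −0.15 against regions of like WT pileup, −0.17 against those of like mean pileup, added with the data already seen, and reversed to 0.012 with the deposited fold. The SD was 0.17 with the deposited fold. The 16 genes lower by 1.5-fold became 3 with the gene-end scale, 0 with the deposited fold and 1 at 2-fold. Among single genes recomputed, Rpl6 reversed, to 0.055 with the deposited fold. The region nearest the gene start, also added later, gave a median of −0.38 over 56 genes. The overlap of 50% was planned and run for the shares alone. A pileup of 43, the lowest in dKO, limits the ratio of Rps10 to an interval of −0.99 to 0.07.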

Other observations

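The naming rule left out 14 coding genes, and 13 of them had a region. Rpl22l1 on chromosome 3, a paralog of Rpl22, had pileups of 718 in WT and 347 in dKO and a log2 ratio of −0.11 (counting interval −0.30 to 0.08), a stronger peak than Rpl22 itself, which had 405 and 167. Rpl7l1 on chromosome 17 had 293 and 103 and −0.57 (−0.90 to −0.24). The 10 genes of the S6 kinase family held 32 regions, of which 20 were in both lists, 7 in WT alone and 5 in dKO alone, where 68.2%, 20.4% and 11.5% of all regions in or near coding genes fall into these classes. Rps6kb1, the kinase of Rps6, had 1 region with 414 and 151 and a log2 ratio of −0.51 (−0.79 to −0.24). Rps6ka6 had the highest ratio of these genes, 0.38 (−0.02 to 0.77).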
